A study of Saccharomyces cerevisiae with 262 samples.

Results

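The genes described here are the 7 a-specific mating genes of budding yeast on a spotted 2-colour array: STE2 (YFL026W), MFA1 (YDR461W), MFA2 (YNL145W), STE6 (YKL209C), BAR1 (YIL015W), AGA2 (YGL032C) and ASG7 (YJL170C). They were chosen by gene symbol. Each had 1 probe among the 7085 probes of the array, of which 5645 carried a gene symbol, and the 7 genes lie on 7 different chromosomes. No probe or gene sequence was used here.

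Haploid yeast cells have mating type a or alpha, set by the allele at the MAT locus, and cells of opposite type find each other through secreted peptide pheromones. The a-specific genes provide what an a cell needs for this: the a-factor pheromone and its exporter, the receptor for alpha-factor, a protease that destroys alpha-factor, and the binding subunit of the cell-surface agglutinin. In alpha cells they are kept off by the alpha2 protein, encoded at MAT, acting with Mcm1 and the corepressor of Tup1 and Cyc8, while the alpha1 protein turns on the alpha-specific genes.

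The study compared RM11-1a (RM, derived from a vineyard isolate), haploid segregants of the cross between RM and BY, and BY4716 (BY, a laboratory strain isogenic to S288c). As background that the labels do not give, BY4716 is of mating type alpha and RM11-1a derivatives used in this cross are of mating type a. Every one of the 262 arrays set the RNA of a haploid strain against pooled BY4716 RNA as a common reference. They form 131 dye-swap pairs: 12 of RM under 6 replicate numbers, 6 of BY, and 1 for each segregant. Whether the replicates of a parent are separate cultures is not in the labels; the p-values then cover the spread of these samples alone, which may be technical.

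Values are log2 ratios of a strain's own RNA over the BY reference pool, averaged over the dye-swap pair, or taken from a single array where the other lacked the probe. The direction is likely rather than stated. It rests on genes outside the group described here: LEU2, URA3 and HO, which are deleted or replaced in the RM derivative, averaged −5.93 ± 0.378, −4.87 ± 0.661 and −3.53 ± 0.643 in RM (SD, n = 6), and LYS2, deleted in BY4716, averaged 4.36 ± 0.584 in RM (SD, n = 6). With an inverted ratio, all directions given here would turn round. A median of 6488 probes were measured on RM arrays, 6341 on segregant arrays and 4756 on BY arrays, and the number of arrays limits the precision. The a-specific genes were measured on 21 to 24 of 24 RM arrays and 202 to 216 of 226 segregant arrays, but on 2 or 3 of 12 BY arrays for MFA1, MFA2, STE6 and BAR1, 6 for STE2, 9 for ASG7 and 11 for AGA2. Because a ratio compares a probe only with itself, the size of a ratio does not say which of the genes is expressed more. The denominator of every ratio is BY RNA and the spot intensities were not analysed here, so the differences below are differences of ratios and not calibrated folds of expression.

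All 7 a-specific genes were higher in RM than in BY. STE2, the G-protein-coupled receptor for alpha-factor, ran from 4.79 to 5.49 with a median of 5.12 over the 6 RM replicates, against −0.05, −0.06, −0.44 and −0.42 in the 4 BY replicates that had a value. The groups stood far apart, and the log2 difference was 5.37 (SE 0.136). BAR1, the secreted protease that degrades alpha-factor, ran from 4.33 to 5.03 with a median of 4.88 in RM, against 0.56 and 0.15 in the 2 BY replicates with a value. Its log2 difference was 4.43 (SE 0.182), which rests on those 2 BY values. STE6, the transporter that exports a-factor, ran from 2.41 to 3.73 with a median of 3.05 in RM, against −0.25, 0.25 and −0.18 in 3 BY replicates. Its log2 difference was 3.06 (SE 0.277), and again every RM replicate lay above every BY replicate.

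The a-factor precursor is encoded by a pair of genes. MFA2 had 1.43, 1.57, 2.80, 2.38, 5.00 and 6.70 in the 6 RM replicates, the widest RM spread of the 7 genes, against −0.14 and −0.22 in 2 BY replicates. The log2 difference was 3.49 (SE 1.28). MFA1 had 0.69, 0.85, 0.30, 0.22, 0.20 and 0.86 in RM, against −0.26 and −0.34 in BY, and its log2 difference was 0.82 (SE 0.198). The 2 genes encode near-identical mature peptides, and whether the probes tell the transcripts apart was not tested.

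AGA2, the adhesive subunit of the a-agglutinin on the cell surface, ran from 1.20 to 2.46 with a median of 1.92 in RM, and from −0.42 to 0.16 with a median of −0.02 in the 6 BY replicates. Its log2 difference was 1.93 (SE 0.192). ASG7, whose product acts with the a-factor receptor to shut down pheromone signalling after mating, ran from 0.18 to 0.28 with a median of 0.23 in RM, and from −0.31 to 0.09 with a median near 0 in BY. Its log2 difference was 0.27 (SE 0.0602), the smallest of the group, although the replicates of the parents did not overlap.

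All 7 passed the test as higher in RM, with adjusted p between 4.48e-11 for STE2 and 0.0477 for MFA2 (limma, Benjamini-Hochberg over all probes tested). Over the whole array 3258 of 6527 probes passed in either direction (49.9%) and 27.8% passed as higher in RM. The lowest RM replicate lay above the highest BY replicate for all 7 genes and for 19.5% of all probes. This is easier to meet with few BY values. MFA1, MFA2 and BAR1 had 2 and STE6 had 3, while 5822 of the 6527 probes had at least 4 values per parent. The median log2 difference was 3.06 over the 7 genes and 0.01 over all probes tested. The MFA2 call was marginal: its adjusted p was 0.0647, 0.0573 and 0.0764 without RM replicate 3, 4 or 5, and 0.0504 and 0.0502 without BY replicate 3 or 4. With each of the 12 RM pairs as a replicate, MFA2 (0.0945) and MFA1 (0.0888) were not called. Quantile normalization left MFA2 (0.0556) and ASG7 (0.0510) uncalled and lowered the differences of BAR1 to 2.59 and of STE6 to 1.96. When segregants were added to the fit, so that their spread entered the error, STE2 (adjusted p = 0.00706) and STE6 (0.0385) were still called and the other a-specific genes were not (0.0925 for MFA2 to 0.676 for ASG7).

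**Figure D1:**
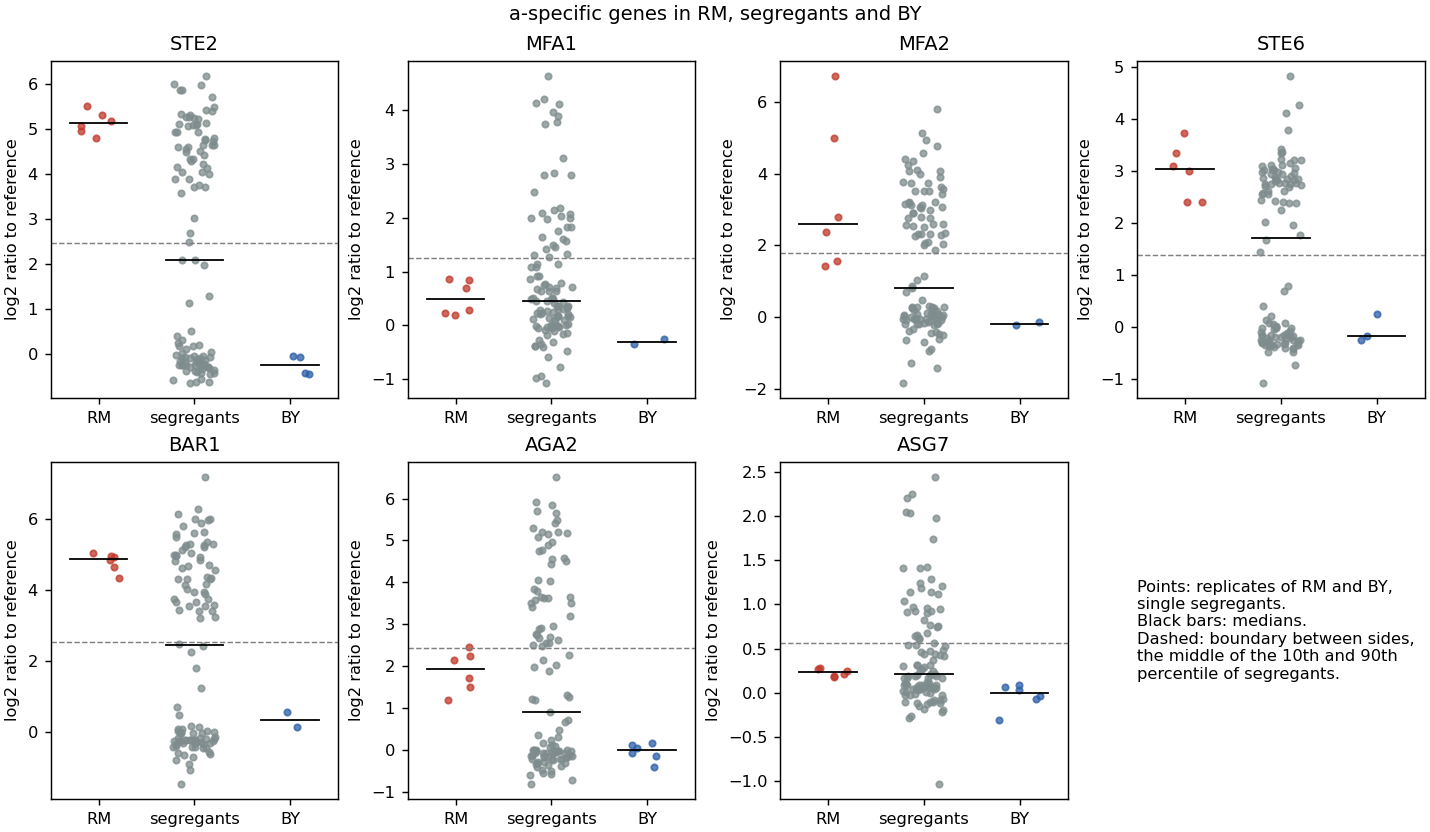
Log2 ratio to the reference pool (vertical axis) of each a-specific gene in RM replicates, segregants and BY replicates, with black bars for medians and a dashed line for the boundary between sides used for the segregants. RM lies above BY in every panel. The segregants fall into separate upper and lower sets for STE2, MFA2, STE6 and BAR1. MFA1 and ASG7 spread without a wide gap among the middle-ranked segregants.

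Within RM, values of MFA2 differed between array pairs of the same replicate number. RM numbers 1 to 4 were hybridised as 2 or 3 pairs, and the last pair of each number stood apart. These 4 pairs correlated with each other across probes at 0.944 to 0.957 and with the other 8 RM pairs at 0.823 to 0.918. Those 8 correlated among themselves at 0.882 to 0.970, which overlaps the range between the sets. Probes are not independent replicates. The labels do not say what a repeat is. MFA2 had 0.46, 0.14, 0.18 and 0.29 in these 4 last pairs and between 2.40 and 6.70 in the other 8. MFA1 lay between −0.00 and 0.06 in the last pairs, and between 0.20 and 1.67 in the others. AGA2 lay between 1.19 and 1.50 in the last pairs and between 1.20 and 3.69 in the others. The sets did not overlap for MFA1 and MFA2; over all probes they did not overlap, in either direction, for 5.57%. STE2, STE6 and BAR1 stayed high throughout: in the last pairs they had 4.96 to 5.01, 2.92 to 3.04 and 4.38 to 4.78, against 4.79 to 5.97, 2.41 to 4.41 and 4.33 to 5.97 in the others.

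A test of last against first repeats of numbers 1 to 4, added after these values were seen, called 89 of 6539 probes (1.36%). MFA2 was among them, with a log2 difference of −2.91 (SE 0.253, limma adjusted p = 0.0113). AGA2 (−1.58, SE 0.263, adjusted p = 0.0602), MFA1 (−0.94, SE 0.242, 0.150) and STE2 (−0.55, SE 0.134, 0.133) were not called, nor were STE6, BAR1 and ASG7. All 7 genes remained called against BY with either set of repeats, but the size of the change moved. MFA2 was 0.45 (SE 0.105) higher in RM with the last repeats and 4.25 (SE 0.961) with the first ones. MFA1 was 0.33 (SE 0.0683) higher with the last and 1.12 (SE 0.371) with the first repeats, and AGA2 was 1.34 (SE 0.112) higher with the last and 2.41 (SE 0.348) with the first. With the last repeats MFA1 itself lay between −0.00 and 0.06, so that difference rests on the 2 BY values of −0.26 and −0.34.

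**Figure D2:**
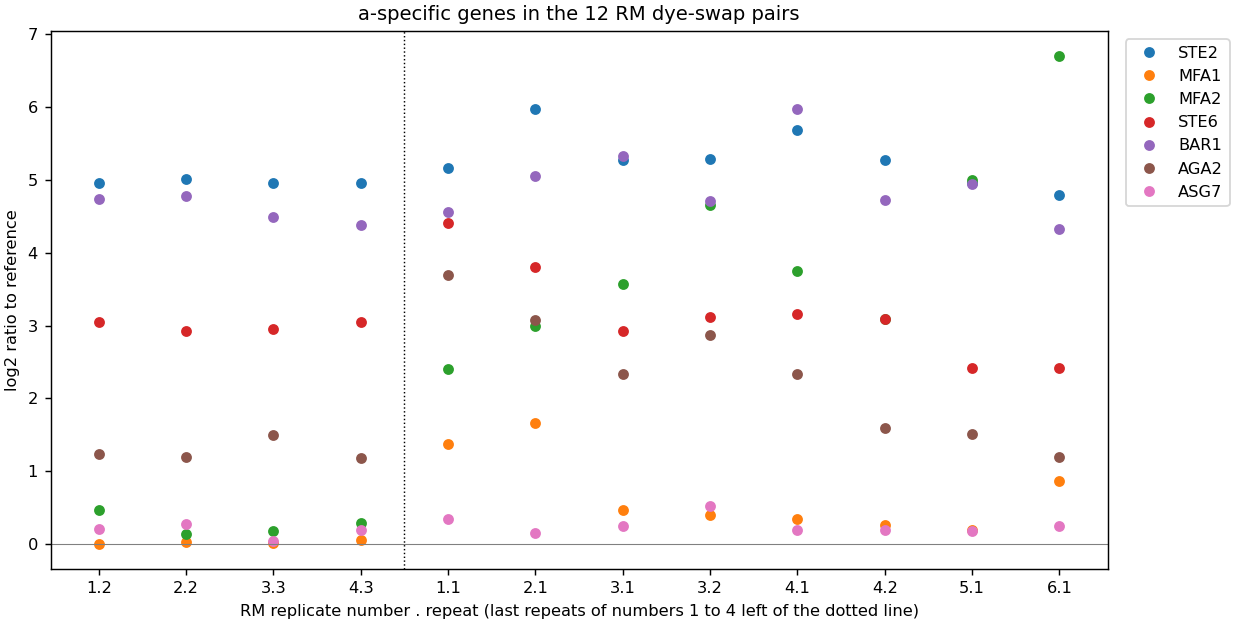
Log2 ratio to the reference pool of the 7 a-specific genes in each of the 12 RM dye-swap pairs, named by replicate number and repeat, with the last repeats of numbers 1 to 4 at the left of the dotted line. MFA2 and MFA1 lie near 0 in those 4 pairs (at most 0.46 and 0.06), while STE2 lies between 4.79 and 5.97 in all 12.

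Of 7 genes that process a-factor, 2 rose in RM and 0 fell, where 27.8% of all probes rose and 22.2% fell. RAM2, a subunit of the farnesyltransferase, averaged 0.163 ± 0.0626 in RM (SD, n = 6) and −0.118 ± 0.123 in BY (SD, n = 5), a log2 difference of 0.28 (adjusted p = 0.0016). STE24, a protease of the precursor's maturation, averaged 0.287 ± 0.0324 in RM and 0.0947 ± 0.0747 in BY (SD, n = 6 each), a log2 difference of 0.19 (adjusted p = 0.00141). The other 5 (RAM1, RCE1, STE14, AXL1 and STE23) did not pass, with differences between −0.14 and 0.02. The list's median difference was −0.03.

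All 5 alpha-specific genes fell in RM, with a median log2 difference of −3.47, where 22.2% of all probes fell. STE3, the a-factor receptor and counterpart of STE2, averaged −5.80 ± 1.32 in RM and 0.0938 ± 0.154 in BY (SD, n = 6 each), a difference of −5.89. SAG1, the agglutinin to which Aga2 binds, fell by 5.62 and AFB1, which encodes an a-factor blocker, fell by 3.47 on the log2 scale. The alpha-factor genes had differences of −3.17 for MF(ALPHA)1 and −1.26 for MF(ALPHA)2. These 2 pheromone genes are related, and whether their probes share signal was not tested.

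Of 11 regulators of mating type, 5 rose and 3 fell in RM, beside 27.8% and 22.2% of all probes. MATALPHA2, which encodes the repressor of the a-specific genes, averaged −1.06 ± 0.0743 in RM and −0.0153 ± 0.0814 in BY (SD, n = 6 each), and MATALPHA1 averaged −1.83 ± 0.386 in RM and −0.0372 ± 0.0614 in BY. HMRA2 fell by 0.65. HMRA1, the probe for the a1 gene, averaged 0.956 ± 0.722 in RM (SD, n = 6) and −0.0690 ± 0.161 in BY (SD, n = 4), a difference of 1.02 (adjusted p = 0.0205). The silent HML and HMR cassettes carry copies of the genes at MAT, so these probes cannot be assigned to a single locus. The corepressor genes TUP1 and CYC8 rose by 0.24 and 0.31, MCM1 by 0.29 and SIR2, a silencing gene, by 0.21. SIR1, SIR3 and SIR4 did not pass, with differences between −0.04 and 0.05.

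Of 9 genes whose products work with those of the a-specific genes in mating, 2 rose and 5 fell in RM, beside 27.8% and 22.2% of all probes. AGA1, which encodes the anchor subunit that holds Aga2 on the cell wall, averaged −2.62 ± 0.133 in RM and −0.288 ± 0.0942 in BY (SD, n = 6 each), a difference of −2.33 (adjusted p = 4.6e-12), the opposite direction to AGA2. SST2, which encodes the regulator that turns off the receptor's G protein, fell by 1.13 and FUS1, a cell-fusion gene induced by pheromone, by 0.86. Of the 3 subunits of that G protein, GPA1 fell by 0.17, while STE4 and STE18 rose by 0.25 and 0.22. KEX2, a protease of the alpha-factor precursor, fell by 0.11. STE12, the transcription factor of the pheromone response, and STE13, another alpha-factor processing gene, had differences of 0.14 and 0.07 and did not pass.

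The segregants fell into upper and lower sets for most of the genes. A segregant was put on the high or low side of a gene by the middle between the 10th and 90th percentile over segregants, so the sides are read from the values themselves and are given as a description. STE2 ran from −0.64 through a median of 2.08 to 6.16 over the segregants. Its boundary was 2.45, and 55 were on the high side (49.1%, exact binomial 95% interval 39.5 to 58.7%). The widest empty interval among its middle-ranked segregants lay below that boundary, between 1.27 and 1.96, with 58 segregants above it. STE6 ran from −1.07 through 1.72 to 4.83, with 58 high (51.8%, 42.1 to 61.3%). BAR1 ran from −1.45 through 2.45 to 7.16, with 54 high (49.1%, 39.4 to 58.8%). MFA2 ran from −1.81 through 0.81 to 5.81, with 53 high (46.9%, 37.5 to 56.5%). For these 4 genes at most 6 segregants lay within 0.5 of the boundary, and each had a widest gap of at least 0.659. Gaps were sought among the middle-ranked segregants of a gene only, with the lowest and highest values left out. Of the segregants, 3 had no value for BAR1, 2 had none for AGA2 and for ASG7, and 1 had none for STE2, STE6 and MFA1. The intervals cover counting error only.

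AGA2, MFA1 and ASG7 were less clear-cut. AGA2 ran from −0.81 through 0.90 to 6.50, with 46 high (41.4%, 32.2 to 51.2%) and 15 within 0.5 of the boundary. MFA1 ran from −1.06 through 0.45 to 4.62, with 33 high (29.5%, 21.2 to 38.8%). Its widest gap among the middle-ranked segregants was only 0.172. From 21-1-d to 26-2-d no segregant was high for MFA1 (at most 0.79, in 21-3-d), although STE2 reached 6.16 there (in 21-2-d). This pattern by label was noticed after the values were seen, and its cause was not tested. ASG7 ran from −1.02 through 0.21 to 2.43, with 34 high (30.6%, 22.2 to 40.1%), and 61 lay within 0.5 of its boundary. The share for MFA1 became 71.4% and that for ASG7 62.2% when the boundary was set midway between the parental means, so for these genes the count of high segregants depends on where the line is drawn. The arrays of a pair also agreed less for some genes: the median absolute difference between them over segregants was 0.692 for MFA1, 0.640 for MFA2 and 0.506 for AGA2, against 0.278 for STE2 and 0.193 for ASG7.

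The a-specific genes went up and down together across segregants. Among the segregants, 18 had all measured genes on the high side, 53 had all on the low side and 42 were mixed. These counts depend on the boundary: 45 were all high, 27 all low and 41 mixed with boundaries at the middle of the parental means, and 9 were all high and 48 all low with Cy3 arrays only. None of the 18 was labelled 21-1-d to 26-2-d, where MFA1 was on the low side throughout. Leaving out MFA1 and ASG7, 43 were high for all the rest, 55 were low for all and 15 were mixed. The genes left out are those that matched STE2 least in these same data, so fewer mixed segregants follow partly from that choice. STE2 was on the same side as STE6 in 97.3% of segregants and as BAR1 in 97.3%, and on the same side as MFA2 in 94.6% and AGA2 in 91.8%. It matched ASG7 in 80.9% and MFA1 in 74.8%. By the majority of its measured genes, a segregant was on the high side in 53 cases and on the low side in 60. These sides are used for the shares and correlations below. The low side included 22-3-b, high for STE2 (4.42), BAR1 (4.15) and STE6 (2.42). It also included 20-4-c (STE2 3.02, MFA2 3.52, STE6 2.02) and 13-1-a (BAR1 3.64, STE6 3.35, MFA2 2.91). In each, MFA1, ASG7 and AGA2 were low. Segregant 7-5-d was also on the low side, high for STE6 alone (2.75). Its STE2 (1.96), BAR1 (2.48) and AGA2 (2.14) were raised but lay under the boundaries of 2.45, 2.52 and 2.42. By the majority of STE2, STE6 and BAR1, 55 were high and 55 low, without the segregants described below whose arrays went against their labels. The 8 segregants that lacked a value for at least 1 of the genes were all low for every gene they had.

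**Figure D3:**
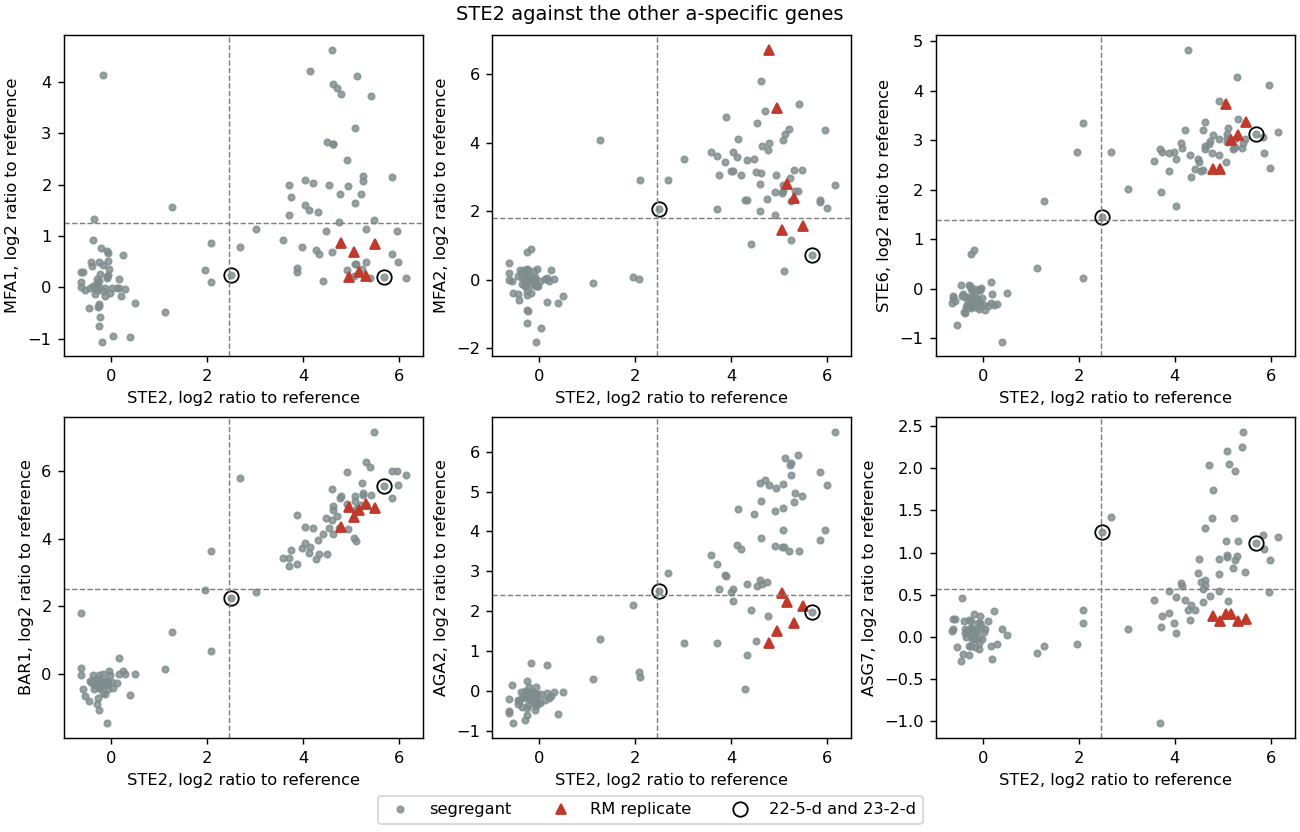
Log2 ratio of STE2 (horizontal axis) against each other a-specific gene (vertical axis) in segregants (grey) and RM replicates (red triangles), with the boundaries between sides dashed and the segregants 22-5-d and 23-2-d circled. BAR1 and STE6 match the side of STE2 in 97.3% of segregants, while many segregants high for STE2 lie below the MFA1 or ASG7 boundary. For MFA1 these include every segregant high for STE2 that is labelled 21-2-d to 26-2-d.

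A few segregants did not follow the group. In segregant 5-4-d MFA1 was at 4.13 while STE2 was at −0.17, STE6 at −0.15, BAR1 at −0.32 and AGA2 at −0.22, so that MFA1 alone was high. In segregant 9-3-d MFA2 was at 0.25 while STE2 was at 5.10, STE6 at 3.24, BAR1 at 3.94 and AGA2 at 3.62. In segregant 2-4-a AGA2 was at 0.06 while STE2 was at 4.28 and STE6 at 4.83, the highest STE6 value of all segregants. Segregant 17-1-a was high for STE6 (1.77), MFA1 (1.56) and MFA2 (4.07) but below the boundary for STE2 (1.27), BAR1 (1.23) and AGA2 (1.30). These were chosen after their values were seen.

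The arrays of segregants 22-5-d and 23-2-d went against their labels. The arrays of a pair had a median correlation of 0.627 over segregants, but −0.0988 in 22-5-d and −0.0449 in 23-2-d, and the arrays of these strains matched each other across labels at 0.730 and 0.762. STE2 was at 5.59 on the Cy5 array of 22-5-d and −0.61 on its Cy3 array, and at 5.70 on the Cy3 array of 23-2-d, with no value on its Cy5 array. AGA2 was at 5.07 and −0.06 on the Cy5 and Cy3 arrays of 22-5-d and at −1.09 and 5.06 on those of 23-2-d. Their pair means are therefore not read as the values of either strain, but they remain in all counts and correlations that do not name them as left out. Without them, 64.9% of segregants had all measured genes on the same side, and 62.8% with them, and STE2 matched BAR1 in 97.2%, STE6 in 97.3% and AGA2 in 92.6%.

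Some a-specific genes exceeded the highest RM pair in many segregants. The share of segregants above the highest RM pair was not computed over all probes, so the excess is not shown to be particular to these genes. ASG7 was above the highest RM pair (0.52) in 38 segregants (34.2%, 95% interval 25.5 to 43.8%), reaching 2.43. The pair means of 22-5-d (1.24) and 23-2-d (1.12) are among these. AGA2 was above the highest RM pair (3.69) in 25 (22.5%, 15.1 to 31.4%) and MFA1 above 1.67 in 24 (21.4%, 14.2 to 30.2%). With the highest RM pair of each gene left out, a limit chosen after the values were seen, the counts were 46 for ASG7 (above 0.34), 34 for AGA2 (above 3.07) and 30 for MFA1 (above 1.38). BAR1 exceeded 5.97 in 5 segregants, STE2 exceeded 5.97 in 2 and STE6 exceeded 4.41 in 1. These small counts rest on a single RM pair each: without it BAR1 exceeded 5.32 in 13, STE2 exceeded 5.69 in 6 and STE6 exceeded 3.80 in 4. MFA2 exceeded its highest RM pair (6.70) in 0 segregants (95% interval 0 to 3.21%). That pair, of RM number 6, had 4.01 on its Cy5 array and 9.40 on its Cy3 array, and without it 2 segregants exceeded 5.00. The mean over segregants was not shown to differ from the parental midpoint for any of the 7: limma called 118 of 6527 probes (1.81%) and 0 of the 7 genes. An unadjusted p under 0.05 was found for 788 probes and 0 of the 7 genes, the lowest being 0.0513 for ASG7. The segregants minus midpoint difference was 0.87 (SE 0.622) for AGA2, 0.76 (SE 0.499) for MFA1, 0.35 (SE 0.178) for ASG7 and between −0.29 and −0.08 for the rest.

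Each probe was scored by the share of segregants on which it took the same side as the majority of the a-specific genes. Over 5614 other named probes the median share was 48.7%, with the 1st and 99th percentiles at 36.6% and 64.3%. The a-specific genes themselves, which define the majority, ran from 76.8% for MFA1 to 98.2% for STE2. The 5 most alike genes were BST1 (93.8%), GYP8 (90.2%), HMRA1 (88.3%), MEC3 (87.5%) and STB5 (80.5%). The 5 most opposite were MATALPHA1 (4.42%), MF(ALPHA)1 (5.31%), HMLALPHA1 (5.36%), AFB1 (7.08%) and MATALPHA2 (7.08%). Among the alpha-specific genes STE3 was at 8.85%, SAG1 at 13.3% and MF(ALPHA)2 at 16.8%. Of the a-factor processing genes AXL1, which encodes a protease of a-factor maturation, was at 64.6%, and the others ran from 39.8 to 58.4%. MCM1, TUP1 and CYC8 were at 54.9%, 40.7% and 50.4%.

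The most alike pair, BST1 and GYP8, are the genes on either side of STE2 in the R64 annotation. BST1, which acts in quality control of proteins leaving the endoplasmic reticulum, averaged 0.420 ± 0.0430 in RM (SD, n = 6) and 0.00786 ± 0.0568 in BY (SD, n = 6), a log2 difference of 0.41 (adjusted p = 1.3e-06). GYP8, which encodes a GTPase-activating protein for vesicle transport, averaged 0.866 ± 0.147 in RM (SD, n = 6) and 0.0334 ± 0.120 in BY (SD, n = 4), a difference of 0.83 (adjusted p = 9.43e-06). MEC3, of the DNA-damage checkpoint clamp, was higher in RM by 0.61 and STB5, a transcription factor of the oxidative stress response, by 1.10. Chosen after this was seen, 13 of the 14 nearest protein-coding neighbours of the 7 genes had a probe, with a median share of 59.3%. Of these, 6 lay above the 99th percentile (GYP8, BST1, HOP2 beside AGA2 at 74.1%, TFB3 beside MFA1 and TOH1 beside ASG7 at 66.4% each, and CBT1 beside STE6 at 64.6%), and 2 lay below the 1st percentile (YNL146W beside MFA2 at 33.9% and SNL1 beside BAR1 at 36.3%). No test was made on this list.

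**Figure D4:**
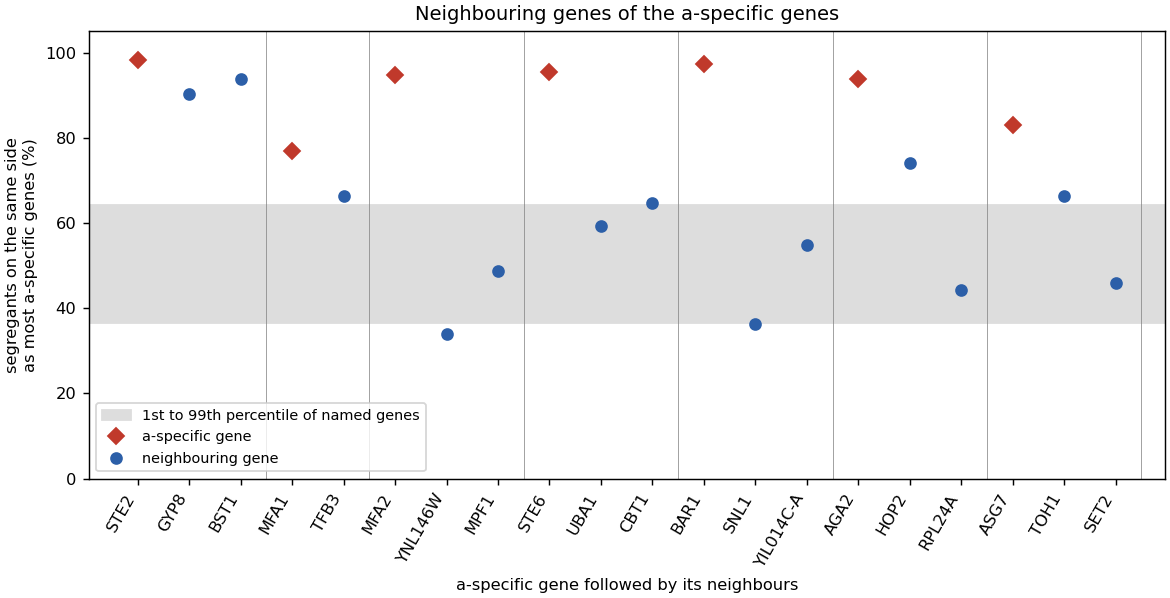
Percent of segregants on which a gene takes the same side as most a-specific genes (vertical axis), for each a-specific gene (red diamonds) and its nearest neighbours in the genome (blue circles), with the 1st to 99th percentile of named genes in grey (36.6 to 64.3%). Both neighbours of STE2 lie above 90%, well over the neighbours of the other genes, of which HOP2 is highest at 74.1%.

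Within the 53 segregants of the high side, the receptor, protease, agglutinin and ASG7 genes varied together. With all segregant labels pooled, the a-factor genes were not called with them. All 21 pairs of genes were correlated over these segregants, with two-sided permutation p (100000 resamples) adjusted over the pairs of both sides. The sides were set by these same genes. As a background, 2.34% of correlations of the 7 genes with all other named probes were at least 0.372 in size. The 99th percentile of those r ran from 0.275 for STE6 to 0.445 for AGA2. Of the 21 pairs, 9 were called by Pearson's r, the lowest at 0.363, and all 9 were also called by Spearman's rho. The strongest was STE2 with BAR1 (r = 0.702, rho = 0.767, permutation p = 1e-05, the smallest that can be given, adjusted p = 6e-05). BAR1 with AGA2 had r = 0.556 (rho = 0.557), STE2 with AGA2 had r = 0.545 (rho = 0.614), AGA2 with ASG7 had r = 0.509 and BAR1 with ASG7 had r = 0.479 (rho = 0.581). Leaving out the 2 segregants farthest from the median of the first gene gave r = 0.800 for STE2 with BAR1 and 0.554 for BAR1 with AGA2.

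MFA1 and MFA2 were correlated with each other on the high side (r = 0.445, rho = 0.389, permutation p = 0.00072, adjusted p = 0.00216). Neither was called with any other a-specific gene, where r ran from −0.138 for MFA2 with STE2 to 0.184 for MFA1 with ASG7. These r pool all segregant labels. On the high side MFA1 was at most 0.79 from 21-2-d to 26-2-d (in 21-3-d), but reached 4.62 in earlier labels (in 8-6-c). Beside high AGA2, MFA1 was at 0.18 in 21-2-d (AGA2 6.50) and 4.11 in 14-3-d (AGA2 5.84). Whether MFA1 goes with the other genes within either run of labels was not tested. STE6 was called with STE2 (r = 0.427, rho = 0.494) and with BAR1 (r = 0.363, rho = 0.451). STE6 was called with AGA2 by rho alone (r = 0.144, rho = 0.366, adjusted permutation p of rho = 0.0192). Without segregants 22-5-d and 23-2-d the call of STE6 with BAR1 by r was lost (r = 0.263, adjusted p = 0.124). Its call by rho stayed (rho = 0.409, adjusted permutation p = 0.0113). With sides also set by STE2, STE6 and BAR1, the call of STE6 with STE2 by r was lost (r = 0.274, adjusted p = 0.0900). The call of that pair by rho stayed (rho = 0.427, adjusted permutation p = 0.00625). On the low side 11 of 21 pairs were called by r and 7 by both measures, but with sides set by those 3 genes and without the 2 segregants this fell to 6 by r and 1 by both. Values of a segregant come from the same array pair, and the part of shared array effects in these correlations was not tested.

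The same was asked of the 9 partner genes over the high side, an analysis added after the data were seen, and 21 of 63 pairs were called by r. As a background, 2.34% of the correlations between the 7 genes and all other named probes over the same segregants were at least as large in size as the lowest r called (0.372), with shares by gene from 0.232% for STE6 to 6.79% for AGA2. AGA1, SST2, FUS1, GPA1 and STE12 were each called with STE2, BAR1, AGA2 and ASG7. BAR1 with AGA1 had the highest r (0.726, rho = 0.764, permutation p = 1e-05, adjusted p = 5.25e-05), and AGA2 and AGA1, the 2 subunits of a-agglutinin, had r = 0.630 (rho = 0.637, permutation p = 1e-05, adjusted p = 5.25e-05). ASG7 had r = 0.704 with SST2 (rho = 0.775), 0.703 with GPA1 (rho = 0.743) and 0.696 with FUS1 (rho = 0.753). The lowest r of these combinations was 0.384, for ASG7 with STE12. MFA1 was called only with STE13 (r = 0.372, rho = 0.351, permutation p = 0.00879, adjusted p = 0.0264), and MFA2 and STE6 were called with none of the 9 by r. STE6 was called by rho with GPA1 (rho = 0.342, adjusted permutation p = 0.0348), AGA1 (0.333, 0.0375), FUS1 (0.330, 0.0388) and SST2 (0.325, 0.0421). Without the 2 segregants farthest in STE6, r of these pairs was 0.412, 0.420, 0.368 and 0.370, against 0.268, 0.226, 0.144 and 0.0633 with them. STE4 was called by rho alone with BAR1 (rho = 0.379, adjusted permutation p = 0.0155) and ASG7 (0.369, 0.0199). Without segregants 22-5-d and 23-2-d, 21 pairs were called.

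**Figure D5:**
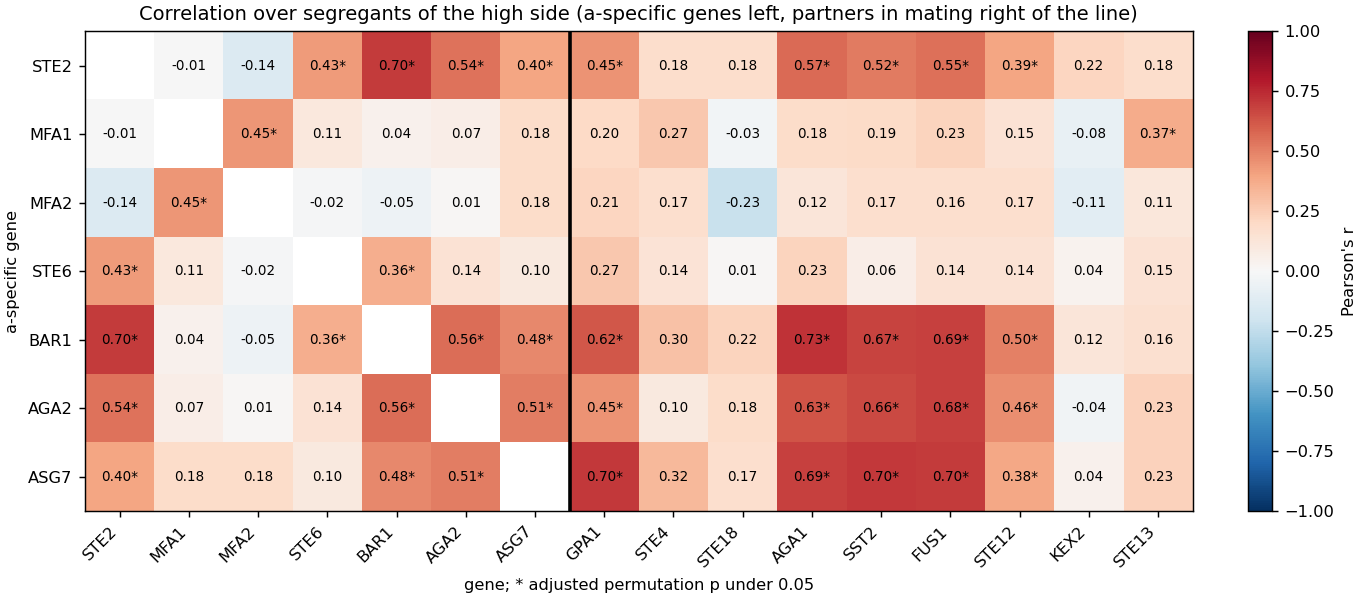
Pearson's r over the segregants of the high side (48 to 53 per pair) between each a-specific gene (rows) and the other a-specific genes or, at the right of the line, 9 partner genes (columns); an asterisk marks an adjusted permutation p under 0.05. STE2, BAR1, AGA2 and ASG7 form a block with r of 0.40 to 0.70 and share the columns GPA1, AGA1, SST2, FUS1 and STE12, while MFA1 and MFA2 are called with each other at 0.45.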

How the data were processed

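The deposited series matrix holds log ratios of 262 arrays, read here as log2 of reference over own RNA. Each array was centred on a mean of 0 (largest absolute mean 1.16e-08). Base and direction are not stated and were taken from the values. Base 2 was taken because the largest absolute value, 11.98, and 2 others pass 11.1, the natural log of a 16-bit scanner range. The direction came from LEU2, URA3, HO and LYS2. For background correction and spot filters, the sources used here name no method. The sign was turned, the 2 arrays of a dye-swap pair were averaged (1 array where the other was missing), and RM repeats of a number were averaged, giving 6 replicates per parent beside 113 segregants, of which 110 to 113 had a value for each a-specific gene. Probes with at least 2 values per parent (6527) were compared with limma 3.58.1 in R 4.3.3 (lmFit, eBayes, Benjamini-Hochberg adjusted p under 0.05), RM against BY alone, and segregants against the parental midpoint with all 3 groups. Gene names came from the platform annotation, and neighbours from the R64 gene table. Shares have exact binomial (Clopper-Pearson) 95% intervals. Correlations within a side used at least 20 segregants and 100000 permutations. Likeness used probes with at least 90 segregants. Scripts ran under Python 3.11.15 (scipy 1.17.1, pandas 2.3.3, matplotlib 3.10.9 and numpy 2.4.6), and the steps were tested on simulated data. Named genes are the 7 a-specific genes, all genes of 4 related lists, and the 5 most alike and 5 most opposite genes. The members and lists were chosen with earlier results of these data known. Alternatives covered dye orientation, centring, quantile normalization, filters, RM repeats, the replicate block and each replicate left out.

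Same-numbered RM and BY replicates deviated together with r of 0.0707 to 0.412, and since the value for number 4 was under 0.1, the numbers were not taken to pair the samples.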

Additional observations from a re-analysis of the deposited data

How the results depend on the processing

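RM against BY called 3 of the 3 a-specific genes tested when both arrays of a pair or at least 4 values per parent were required, 4 of 4 with Cy3 arrays or with BY replicates 3 to 6, and 5 of 7 with quantile normalization or with all 12 RM pairs as replicates. The fit on all 3 groups called 2 of 7 genes and 986 probes. Leaving out each replicate gave 3015 to 3401 probes and 4 to 7 genes, the lowest without BY replicate 1, where 4 were tested. With the replicate number as a block, 3289 of 6525 probes and 7 of 7 genes were called. The MFA2 difference was 1.68 in that fit, which rests on the numbers with values in both parents. At the midpoint, 1.81% of probes were called, Cy5 arrays gave 0.807% and leaving out a replicate 1.18 to 1.66%, the lowest without RM replicate 6, with 0 of the 7 genes in every setting. The uncalled MFA2 difference was 0.17 with Cy5 arrays and ran from −0.26 to 0.26 with a replicate left out, turning sign without RM replicate 5 (0.09) or 6 (0.26), and BAR1 was 0.12 with Cy3 arrays. Boundaries at the parental middle gave 71.4% high for MFA1 and 62.2% for ASG7, and Cy3 arrays put all genes on the same side in 52.8% of segregants.

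Uncalled correlations near 0 turned sign. On the high side, STE2 with MFA1 was 0.00845 with both arrays required and 0.0833 with sides set by STE2, STE6 and BAR1 without the 2 crossed segregants. Under the latter setting STE2 with MFA2 was 0.0516 and MFA2 with BAR1 0.0641. MFA2 with AGA2 was −0.0385 with both arrays, −0.0632 without the crossed segregants and −0.0296 without the 2 farthest segregants. On the low side, sides set by those 3 genes left 6 pairs called and gave −0.00278 for STE2 with MFA1, −0.0967, −0.105 and −0.0128 for ASG7 with STE2, STE6 and AGA2. Both arrays gave −0.0798 for STE2 with MFA1 and 0.0143 for MFA1 with ASG7. Without the 2 farthest segregants ASG7 had −0.00598 with STE2, 0.0625 with MFA1 and −0.00449 with BAR1. Except where a construction is named, the cause was not tested.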
